A study of Caenorhabditis elegans with 12 samples.

Results

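The genes described here are the cytoplasmic ribosomal protein genes of Caenorhabditis elegans, measured in single oocytes. They were chosen by symbol alone, as every gene named rpl-, rps- or rla- followed by a number, with or without a further number after a dot. The rule found 79 of the 46903 genes in the count table, 31 for the small subunit (rps) and 48 for the large subunit (rpl and rla). A cytoplasmic ribosome is built of a small subunit, which reads the mRNA, and a large subunit, which joins the amino acids. Each ribosome needs about 1 copy of nearly every one of these proteins, and cells usually make them in step. The acidic stalk proteins are an exception, since they sit on the large subunit in more than 1 copy. An oocyte stocks the ribosomes and mRNAs that the early embryo lives on.

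Single oocytes were taken from untreated adult wild-type animals at 3 positions of the gonad, -1, -3 and -5, with 4 oocytes at each. Positions count back from the spermatheca, so that -1 is the most proximal and oldest oocyte and -5 the youngest of those sampled. The design text names the age of the oocyte as the comparison. All groups share genotype, treatment and stage. No label says which animal an oocyte came from, and a library holds 1 cell, per the file headers. A position was therefore treated as 1 sample, and no test between positions was made.

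The 12 libraries held 8358019 to 20446599 counts from a 3' end kit that starts from polyadenylated RNA and counts no molecules. Intervals below are at 95%, exact Poisson for levels and exact binomial for shares, and cover counting error only. Levels are in CPM, counts scaled to a common library size, so that more ribosomal protein mRNA and less of other mRNA cannot be told apart. Markers of the labelled cell type were present. All 15 oocyte markers passed the filter on low counts and took 1.12% to 3.66% of the counts of an oocyte. Sperm markers took at most 0.00139%, intestine markers (11 of 15 passed) 0.00605% to 0.0338% and muscle markers (12 of 15 passed, with myo-1 at 0 in all oocytes) 0.0320% to 0.158%. From the other libraries 2 lay apart, replicates 1 and 3 of position -3, at 90.1 on the first and 82.2 on the second principal component of all genes, which held 23.2% and 16.3% of the variance. The comparisons with position -3 are therefore given with and without them.

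Nearly all ribosomal protein genes were expressed in every oocyte. Of the 79 members, 78 had counts in each of the 12 oocytes and passed the filter, and rpl-42 had 0 counts in all 12, with the upper ends of the intervals at 0.0610, 0.0586 and 0.0695 CPM at -1, -3 and -5. The floor of 3 counts at a position, used for ratios, is a one-sided limit and lies a little below these ends. The 3' end of rpl-42 lies 151 bases further along in the reference annotation than in the annotation the authors counted with, the only member whose end lies over 100 bases further. In the other direction the gap was over 100 bases for rpl-20, rpl-33 and rps-19. Over the 12 oocytes the median level of the 78 was 127 CPM, against 35.6 CPM for the 8718 genes that passed. The middle members, from the first to the third quartile, spanned 86.8 to 185 CPM, and 61 of the 78 lay within 2-fold of the median. The small subunit was the more even, from 38.1 CPM for rps-20 to 269 CPM for rps-23, a 7.06-fold range, with a median of 134 CPM. The large subunit ran from 2.74 CPM for rpl-37 to 7552 CPM for rpl-12, with a median of 117 CPM.

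**Figure D1:**
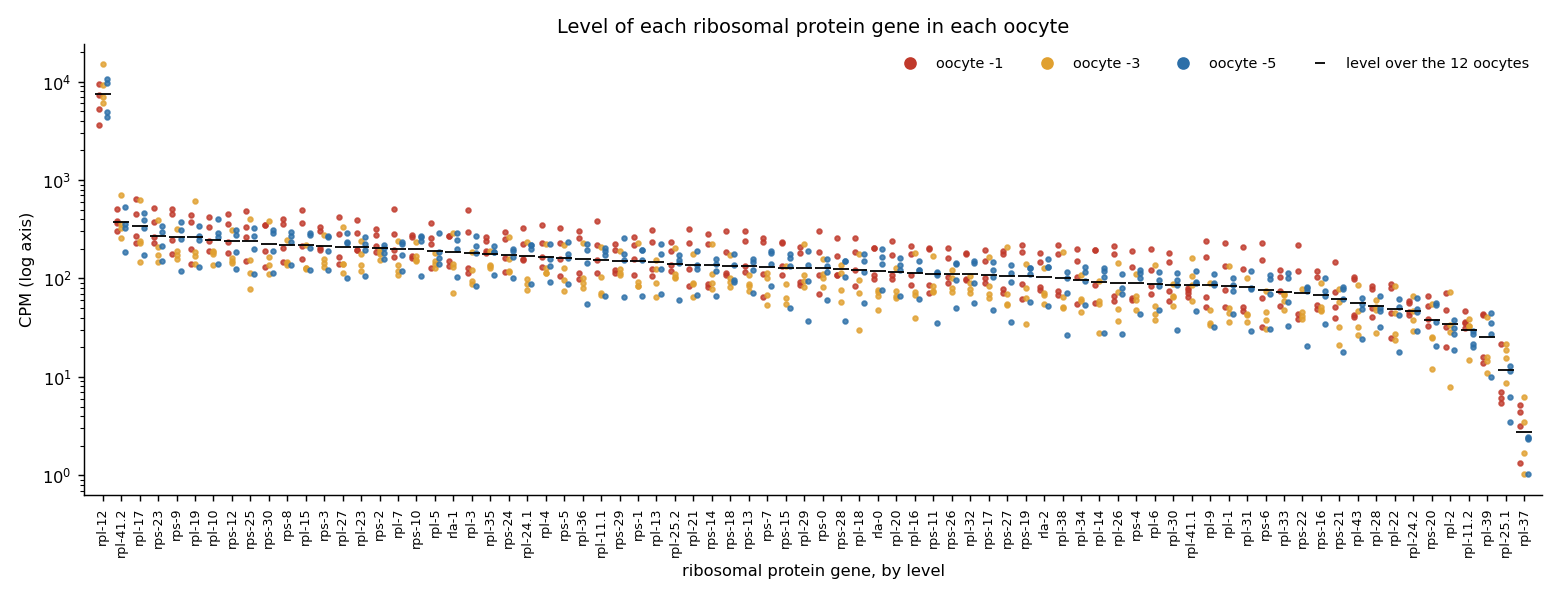
Level in CPM (log axis) of the 78 members with counts, ordered by their level over the 12 oocytes (black dash), with a point for each oocyte coloured by position. One gene, rpl-12, stands above all others in every oocyte, and most of the rest form a gentle slope around the median of 127 CPM.

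After rpl-12 the highest members were rpl-41.2 (378 CPM), rpl-17 (337), rps-23 (269), rps-9 (266), rpl-19 (265), rpl-10 (243), rps-12 (239), rps-25 (238) and rps-30 (223). Neighbours in this order did not differ beyond their spread. In single oocytes rpl-41.2 ranged from 185 to 710 CPM and rpl-17 from 147 to 644 CPM. Per kilobase of exon, rpl-12 at 8476 CPM, rpl-41.2 at 1317 and rpl-17 at 530 kept the first places. On that scale rpl-29, rps-28 and rpl-27 entered the 10 highest in place of rps-9, rpl-19 and rpl-10. The lowest members with counts were rpl-37 (2.74 CPM), rpl-25.1 (11.7), rpl-39 (25.4), rpl-11.2 (30.1), rpl-2 (34.7), rps-20 (38.1), rpl-24.2 (47.0), rpl-22 (48.4) and rpl-28 (52.7). Of the exonic bases of rps-20, 12.96% lie in another gene, and for rpl-20 the share was 14.2%, which leaves these counts uncertain. The other 17 members with an overlap had at most 10%.

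The order of the members was much the same from oocyte to oocyte. Across the 78 genes, Spearman's rho between the levels of 2 oocytes had a median of 0.905 over the 66 pairs of oocytes, and ran from 0.753 to 0.959. These are correlations across genes, which are not independent replicates.

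The gene rpl-12 encodes a large subunit protein at the base of the stalk. It lies at IV, 13239588 to 13240651 (WBGene00004424), and was the 8th most abundant of all genes. Its levels were 3657, 9350, 5240 and 7290 CPM in replicates 1 to 4 of position -1. They were 14921, 7048, 6020 and 9218 CPM at position -3, and 4951, 9669, 10559 and 4417 CPM at position -5. The lowest of these values is above the highest value of any other member, 710 CPM. Over the 12 oocytes rpl-12 stood 59.5-fold above the median member and 19.97-fold above the next one, and it made up 41.8% of all member counts. In single oocytes that share ran from 18.2% to 56.4%. In C. elegans, rpl-12, rpl-3, rpl-1 and rpl-7A are known to give unproductively spliced mRNAs beside the coding one. The reference annotation lists a non-coding transcript for 7 members, which are rpl-12, rpl-3, rpl-1, rpl-13, rpl-22, rpl-30 and rps-23. The counts are per gene and do not separate these forms.

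Together the members took 1.07% to 2.72% of the counts of an oocyte. The shares were 2.36%, 2.72%, 1.54% and 1.6001% in replicates 1 to 4 of position -1. They were 2.33%, 1.45%, 1.24% and 1.56% at position -3, and 1.93%, 1.85%, 2.18% and 1.07% at position -5. The ranges of the 3 positions overlapped. In the summed counts of a position the share was 2.06% at -1 (interval 2.05% to 2.06%), 1.68% at -3 (1.68% to 1.69%) and 1.70% at -5 (1.70% to 1.71%). Without rpl-12 it was 1.401%, 0.807% and 0.992%, so that the gap between -1 and -3 was wider once that gene was left out. Without replicates 1 and 3 of -3, the share at -3 was 1.52%, and 0.695% when rpl-12 was left out too.

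**Figure D2:**
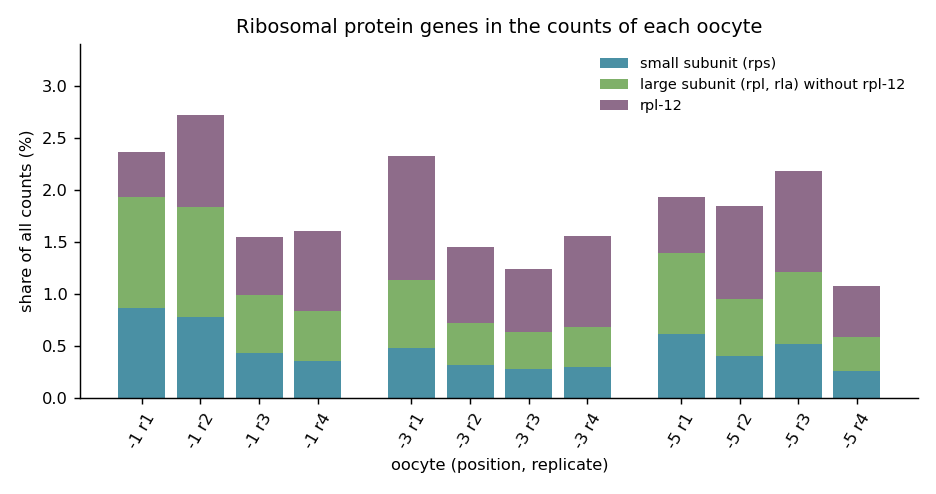
Share of all counts in percent (bars from 0) taken in each of the 12 oocytes by the small subunit genes, by the large subunit genes other than rpl-12, and by rpl-12. The first 2 blocks keep nearly the same proportion in all oocytes while their sum moves, and the rpl-12 block moves separately.

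The 2 subunits kept step with each other in every oocyte. Leaving out rpl-12, the summed CPM of the small subunit over that of the large was 0.815, 0.737, 0.783 and 0.745 in replicates 1 to 4 of position -1. It was 0.728, 0.772, 0.798 and 0.773 at position -3, and 0.789, 0.734, 0.752 and 0.776 at position -5. The highest of these 12 ratios is 1.12-fold the lowest, while the members' share of the counts without rpl-12 differed 3.301-fold between oocytes. With rpl-12 the same ratio ran from 0.235 to 0.581, a 2.47-fold range. The mean log2 levels of the subunits had a Pearson r of 0.997 over the 12 oocytes, which share their libraries and scaling between the measures.

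What varied most was the level of the whole set from one oocyte to the next. The median member stood at 210, 237, 108 and 97.9 CPM in replicates 1 to 4 of position -1, at 171, 81.2, 74.1 and 81.4 CPM at -3, and at 154, 123, 155 and 60.3 CPM at -5. Replicates 1 and 2 of -1 were high, replicate 1 of -3 was high among the -3 oocytes, and replicate 4 of -5 was the lowest of all. The mean log2 level of the members, each gene taken relative to its own mean, ranged from -0.92 in -5 replicate 4 to 0.95 in -1 replicate 2, a 3.65-fold range. Differences between oocytes of the same position made up 82.1% of the variance of that mean, and differences between positions only the rest. Replicate 2 of -1 held the highest value of 45 members, replicate 1 of -1 of 18 and replicate 1 of -3 of 11. Replicate 4 of -5 held the lowest value of 46 members and replicate 3 of -3 of 23.

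The members rose and fell together across oocytes. Each was compared with the mean of the others over the 12 oocytes on the log2(CPM + 1) scale. The median Pearson r was 0.934, with 69 of 78 members over 0.8 and 54 over 0.9. Of the 5109 genes outside the set with a mean of at least 20 CPM, 11 had an r over 0.8 with the mean of the members, or 0.215%, and their median r was -0.041. Between pairs of members the median r was 0.850 over 3003 pairs, 0.876 within the small subunit, 0.820 within the large one and 0.855 between them. The first principal component of the members held 81.9% of their variance. After the mean of each position was taken off, the median r was 0.932. These values describe 12 libraries, in which all genes of an oocyte share 1 library and its depth. Under total counts without a scaling factor the median r was 0.928, and without -3 replicates 1 and 3 it was 0.948.

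**Figure D3:**
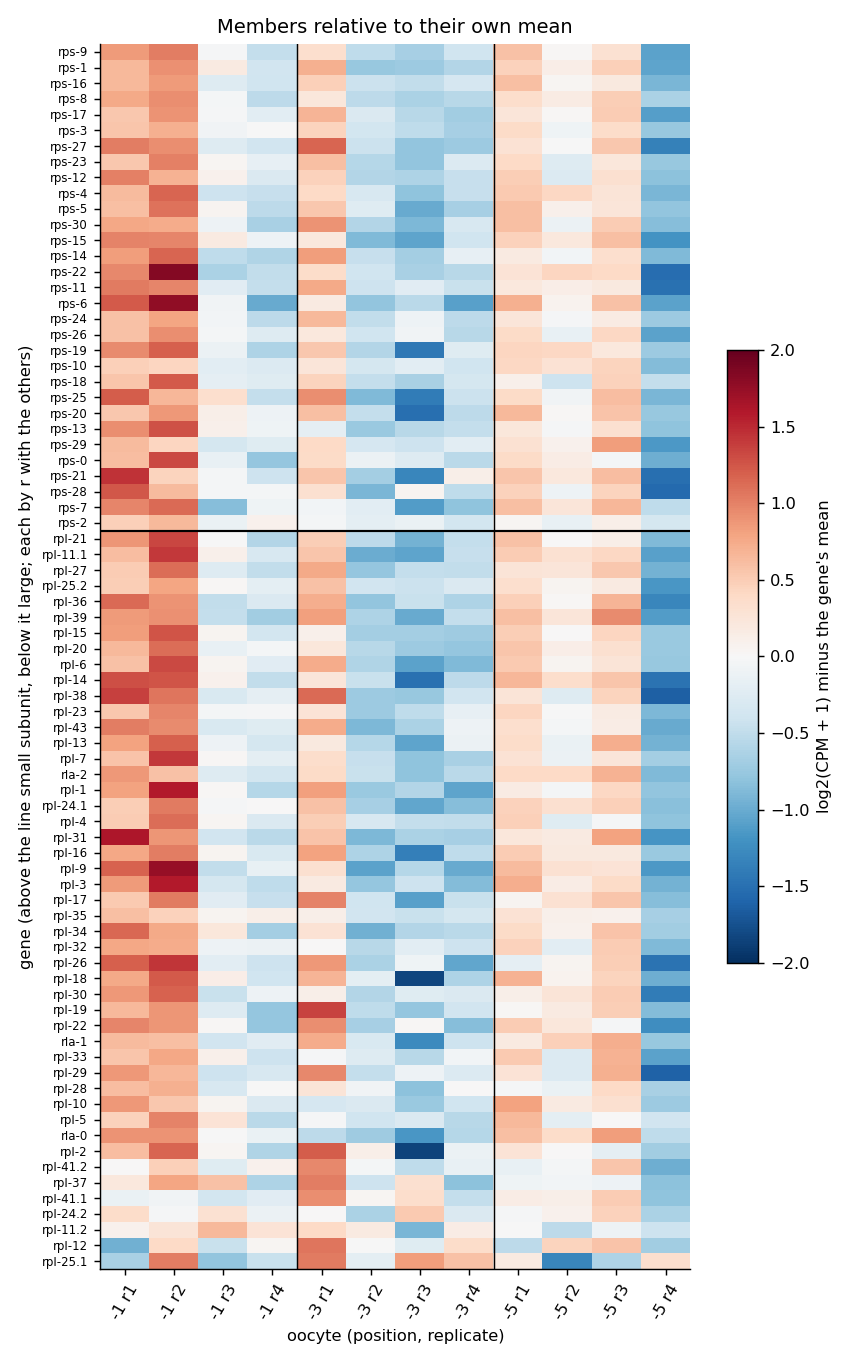
Log2(CPM + 1) of each member minus its own mean over the 12 oocytes, with oocytes in columns by position and genes in rows, small subunit above the line and large subunit below, each ordered by r with the other members. Columns are nearly uniform in colour from top to bottom of each block, with red in -1 replicates 1 and 2 and blue in -5 replicate 4, except in the last rows, among them rpl-12 and rpl-25.1.

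Tightest was rps-9, with an r of 0.984 and levels of 452, 507, 245 and 178 CPM at -1, 315, 175, 156 and 188 CPM at -3, and 376, 254, 308 and 118 CPM at -5. Its oocytes overlapped between all positions. It was followed by rps-1 (0.978) and rps-16 (0.975), both of the small subunit. A member typically had an SD of 0.67 over the 12 oocytes on the log2 scale, and of 0.28 after the mean of the members in each oocyte was taken off (medians over the 78 genes). The level of the set was set beside library measures over the 12 oocytes. Its r was -0.22 with the library scaling factor (TMM), -0.18 with the log10 of the total counts and 0.07 with the number of genes detected. It was 0.11 with the mitochondrially encoded share and 0.20 with the share of counts in other genes of under 1000 exonic bases. With the share of oocyte markers it was -0.02, with that of gonadal sheath and spermatheca markers -0.46 and with that of hypodermis and cuticle markers -0.44. The oocyte lowest for the set, -5 replicate 4, had the highest share of these last lists, 0.101% and 0.0918%. Whether any of these measures bears on the level was not tested.

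The members that followed the set least, named for having the 5 lowest r, were rpl-25.1 (-0.01), rpl-12 (0.23), rpl-11.2 (0.38), rpl-24.2 (0.45) and rpl-41.1 (0.46). All have a large subunit symbol, though rpl-24.2 codes by homology for an assembly factor, as described below. All but rpl-12 share their symbol before the dot with another member, and in each of these pairs the other gene was the more abundant one. The lowest level among them was that of rpl-25.1, with 6.03, 21.5, 5.38 and 7.08 CPM at -1, 21.5, 8.67, 18.7 and 15.5 CPM at -3, and 11.5, 3.48, 6.20 and 12.9 CPM at -5. Replicate 4 of -5, lowest for the set, was the highest of its position for this gene.

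**Figure D4:**
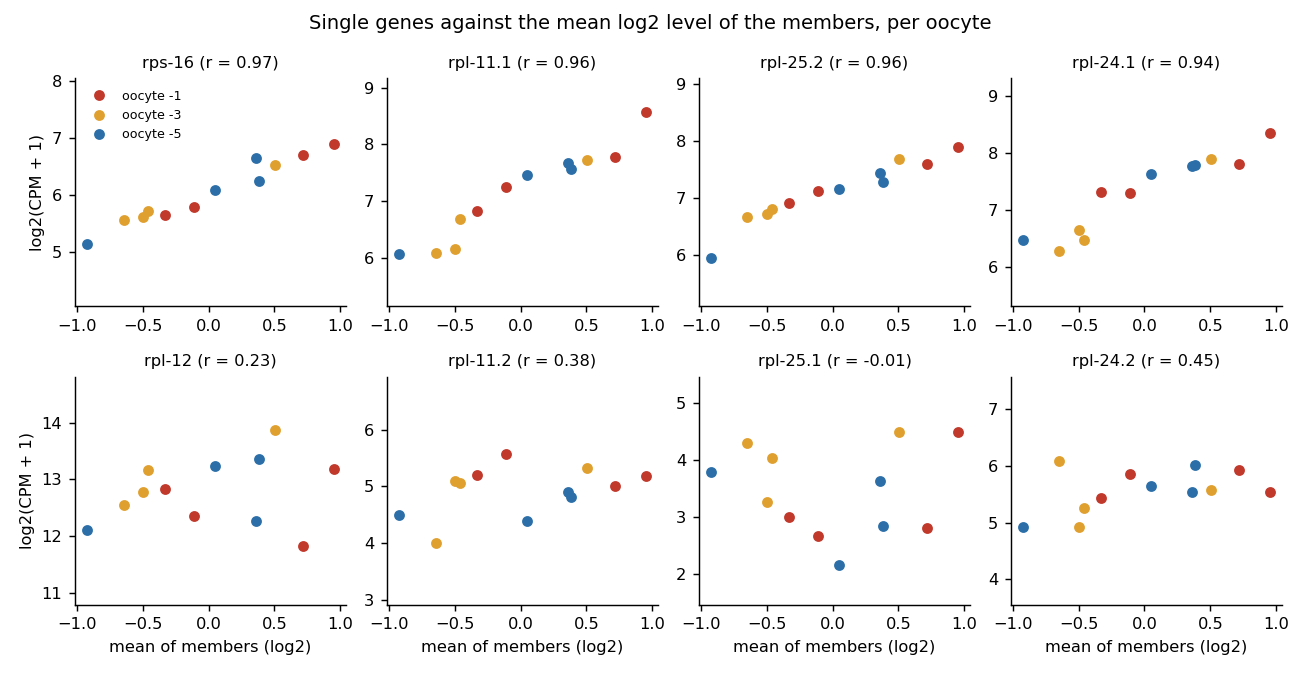
Log2(CPM + 1) of single genes against the mean log2 level of the members, 1 point for each of the 12 oocytes, coloured by position, with equal vertical spans. The genes of the upper row (rps-16, rpl-11.1, rpl-25.2 and rpl-24.1) lie along a line, and those of the lower row (rpl-12, rpl-11.2, rpl-25.1 and rpl-24.2) scatter.

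Genes that share a symbol before the dot divided their counts unequally. The 4 such pairs were rpl-11, rpl-24, rpl-25 and rpl-41. How alike their sequences are was not computed. Reads of near-identical copies could be shared or lost in the counting, which carried no option for multi-mapping reads, so the split within a pair is uncertain.

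The protein of rpl-11 binds the 5S rRNA together with that of rpl-5. Its main copy, rpl-11.1 (V, 3585313 to 3586064, WBGene00004422), held 83.8% of the counts of the pair (interval 83.4% to 84.2%). The rest fell to rpl-11.2 (X, 2241738 to 2242618, WBGene00004423). In single oocytes rpl-11.1 ran from 66.5 to 381 CPM and followed the set, with an r of 0.96. The levels of rpl-11.2 were 31.1, 35.3, 46.3 and 35.8 CPM at -1, 39.2, 33.2, 15.01 and 32.6 CPM at -3, and 29.0, 19.998, 27.2 and 21.7 CPM at -5. All 4 oocytes of -1 lay above all 4 of -5, the only member of which this was true, and -3 overlapped both. Its share of the pair ran from 8.48% in -1 replicate 2 to 31.8% in -3 replicate 2.

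The pair rpl-25 was the most unequal. The main copy rpl-25.2 (I, 8329062 to 8329684, WBGene00004439) held 92.4% of the counts (interval 92.0% to 92.7%) and followed the set with an r of 0.96. Its partner rpl-25.1 (X, 4715178 to 4715801, WBGene00004438) held 7.65%, from 2.39% in -5 replicate 2 to 17.6% in -5 replicate 4. The r between the copies was 0.04. The 2 X-linked members, rpl-11.2 and rpl-25.1, are both minor copies of genes whose main copy is on an autosome. The X chromosome held 2.53% of the 79 members and 11.8% of the 8718 genes that passed the filter.

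Both rpl-24 genes lie on chromosome I, and they are not copies of 1 ribosomal protein gene. By homology rpl-24.1 codes for the large subunit protein, and rpl-24.2 for the relative of yeast RLP24, a factor of large subunit assembly that the symbol rule takes in. Of the counts of both, rpl-24.1 (4585115 to 4586177, WBGene00004436) held 78.1% (interval 77.6% to 78.5%) and followed the set (r = 0.94). The levels of rpl-24.2 (9669415 to 9670098, WBGene00004437) were 59.5, 45.2, 56.8 and 42.2 CPM at -1, 46.3, 29.2, 66.6 and 37.4 CPM at -3, and 45.3, 48.8, 63.6 and 29.2 CPM at -5. They varied less than those of most members, and -3 replicate 3 was the highest.

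The rpl-41 genes, which code for one of the smallest ribosomal proteins, are neighbours on chromosome I with 700 bases between their ends. Of the pair's counts, rpl-41.2 (4790292 to 4790649, WBGene00023068) held 81.5% (interval 81.2% to 81.8%), with an r of 0.74 with the set. Its partner rpl-41.1 (4789190 to 4789592, WBGene00023067) stood at 76.2, 79.2, 64.2 and 70.9 CPM at -1, 160, 85.3, 106 and 59.2 CPM at -3, and 92.3, 90.03, 119.2 and 47.0 CPM at -5. The r between these genes was 0.73, and between the genes of the other pairs 0.42, 0.36 and 0.04.

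A further division of this kind involves rpl-37, the lowest member with counts, at 1.03 to 6.26 CPM. RefSeq's annotation (WBcel235) calls it rpl-37.2 and names another gene, W01D2.1 (II, 14815518 to 14816212, WBGene00012179), rpl-37.1. The latter stood at 75.8 CPM, 27.6-fold higher. Of the counts of both, rpl-37 held 3.49% (interval 3.19% to 3.81%), and 1.89% to 5.65% in single oocytes. W01D2.1 had an r of 0.88 with the members, against 0.66 for rpl-37.

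Oocyte -1 against oocyte -5 compared the oldest oocytes with the youngest. At -1, 76 of 78 members had the higher level. The median of their log2 ratios was 0.45, a 1.37-fold difference of levels, where the median of all genes was -0.01. The subunits were alike, with medians of 0.44 for the small and 0.45 for the large. Past 1.5-fold, 17 members (21.8%) were higher and 0 lower, where 11% of all genes that passed were higher and 13.6% lower by as much. Among genes outside the set with at least 50 CPM, 1.68% were higher by 1.5-fold. All 4 oocytes of -1 lay above all 4 of -5 for 1 member, rpl-11.2, or 1.28%, where the share of all genes was 2.64%. They lay below for 0 members, against 2.89% of all genes, so the positions overlapped for nearly every member.

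The highest ratios belonged to rpl-38 (0.97), rpl-26 (0.96), rpl-9 (0.77), rps-22 (0.75) and rps-28 (0.75). The level of rpl-38 was 141.8 CPM at -1 (interval 139 to 145) against 72.2 CPM at -5 (69.9 to 74.5). Its oocytes stood at 220, 179, 68.4 and 74.6 CPM at -1 and at 101.2, 70.3, 116 and 26.5 CPM at -5, so that replicates 3 and 4 of -1 lay among the -5 oocytes. Without -1 replicate 1 its ratio was 0.50, and without -1 replicate 4 it was 1.28. The lowest ratio with 1 oocyte left out was 0.60 for rpl-26 and 0.41 for rpl-9 (without -5 replicate 4), 0.31 for rps-22 (without -1 replicate 2) and 0.30 for rps-28 (without -1 replicate 1). Lowest were rpl-12 (-0.19), rpl-41.1 (-0.17), rpl-25.1 (0.01), rps-10 (0.09) and rla-1 (0.11). None of these kept its sign with each oocyte left out in turn, since rpl-12 stood at 0.08 without -1 replicate 1 and rps-10 and rla-1 at -0.22 and -0.20 without -5 replicate 4. The ratio of rpl-25.1 ran from -0.51 to 0.35, and that of rpl-41.1 from -0.44 to 0.002.

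The size of this difference moved with single oocytes. The median of the members was 0.15 without -5 replicate 4, with 59 members higher and 1 past 1.5-fold (1.28%, against 29.0% of all genes in either direction). It was 0.69 without -1 replicate 4, with 52 past 1.5-fold (66.7%, against 26.2%). In -5 replicate 4, markers of sheath and spermatheca made up 0.101% of all counts and hypodermis and cuticle markers 0.0918%, against 0.0181% to 0.0233% and 0.0177% to 0.0253% in the other -5 oocytes. At -1 these lists took 0.0139% to 0.0313% and 0.0100% to 0.0148%. Of the 14 hypodermis markers 10 passed the filter, and dpy-7, rol-6, bli-1 and sqt-1 were at 0 in all oocytes. Of the 10 sheath markers 9 were in the table and 5 passed. Muscle markers took 0.0879% to 0.158% at -1, 0.0320% to 0.121% at -3 and 0.0422% to 0.1102% at -5, and the r of their share with the level of the set was -0.03. The part of these lists in the result was not tested.

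Oocyte -1 against oocyte -3 gave the widest gap. Where 51.3% of all genes that passed were higher at -1, 74 of 78 members were. The median of their log2 ratios was 0.61 (1.53-fold), where the median of all genes was 0.02. The medians were 0.61 for the small and 0.65 for the large subunit. Past 1.5-fold, 44 members (56.4%) were higher, where 16.6% of all genes were, and 2 lower, where 19.9% were. Among other genes of at least 50 CPM, 5.83% were higher by 1.5-fold. The oocytes did not overlap for 3 members, rla-0, rpl-10 and rps-13, or 3.85%, where the share of all genes with -1 above was 3.43%. For 0 members did all -1 oocytes lie below, against 2.99% of all genes. The members lower at -1 were rpl-25.1 (-0.86), rpl-12 (-0.62), rpl-41.1 (-0.46) and rpl-41.2 (-0.07), and rpl-37 stood at 0.02. The sign of rpl-41.2 turned under total counts without a scaling factor (0.13) and in the mean of log2(CPM + 1) over oocytes (0.02).

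The stalk scaffold gene rla-0, whose protein carries the acidic stalk proteins, had 205, 206, 109 and 99.3 CPM at -1, 76.0, 66.1, 48.2 and 73.5 CPM at -3, and 166, 141, 197 and 76.3 CPM at -5. All -3 oocytes lay below every other oocyte, the nearest being -5 replicate 4 by a small margin. Its level was 156 CPM at -1 (interval 153 to 159), 66.2 CPM at -3 (64.3 to 68.3) and 137 CPM at -5 (133 to 140). The log2 ratio was 1.24 between -1 and -3 and -1.04 between -3 and -5. Among the members, the acidic stalk proteins are made from rla-1, with ratios of 0.42 and -0.31, and rla-2, with 0.65 and -0.46. For both of these all 3 positions overlapped.

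Other members high at -1 against -3 were rpl-9 (1.31), rps-6 (1.29), rpl-14 (1.178) and rps-13 (1.11). The gene rps-6 codes for the small subunit protein that S6 kinase phosphorylates. It stood at 154, 228, 62.8 and 32.2 CPM at -1 and at 74.6, 37.8, 45.1 and 30.5 CPM at -3. Replicates 3 and 4 of -1 lay among the -3 oocytes. The ratio of rps-6 was 0.93 without -1 replicate 2, and 1.73 without -1 replicate 4. For rps-13 the values were 238, 302, 133 and 117 CPM at -1 against 110, 74.0, 84.2 and 88.5 CPM at -3, and all -1 oocytes were higher.

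The apart-standing oocytes of -3 bore on this comparison in opposite ways, replicate 1 being high for the set and replicate 3 low. Without replicate 1 of -3 the median of the members was 0.93. Then 30 members did not overlap (38.5%, against 9.04% of all genes) and 69 were past 1.5-fold in either direction (88.5%, against 33.3%). Without both the median was 0.89, 39 of 78 members did not overlap, against 17.3% of all genes, and 67 were past 1.5-fold (85.9%, against 32.8%). With all oocytes, 6.42% of all genes did not overlap in either direction. The members move together across oocytes, so their counts here are not counts of separate cases. Without -1 replicate 1 the median was 0.41 and 21 members were past 1.5-fold (26.9%, against 34.2%). Without both -3 oocytes the ratio was 1.90 for rpl-9, 1.77 for rps-6, 1.23 for rpl-14, 1.22 for rps-13 and 1.14 for rla-0, whose level at -3 was then 70.7 CPM (interval 67.8 to 73.7). The ratio of rpl-37 was 1.28 and that of rpl-41.1 0.08 without both, and that of rpl-41.2 was 0.33 without -3 replicate 1. For rpl-12 it was -0.31 without -3 replicate 1, for rpl-25.1 -1.38 without -1 replicate 2, and for rpl-37 -0.36 without -3 replicate 4.

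**Figure D5:**
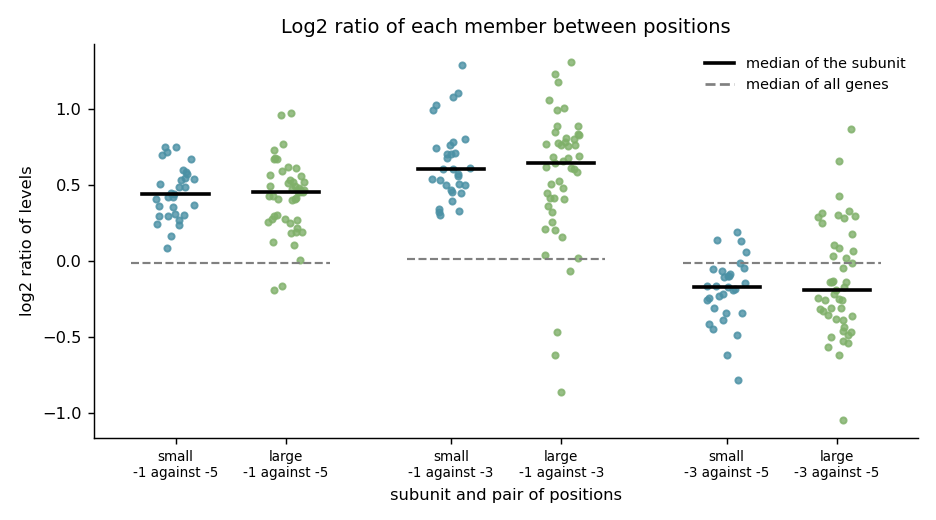
Log2 ratio of the levels of each member between 2 positions, 1 point for each of the 31 small and 47 large subunit genes with counts, with the subunit median (black line) and the median of all genes that passed (dashed grey line). The subunit medians lie side by side in each comparison, at 0.44 and 0.45, 0.61 and 0.65, and -0.17 and -0.19.

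Oocyte -3 against oocyte -5 gave a smaller difference in the other direction. Where 4429 of the 8718 genes that passed were lower at -3, 58 of 78 members were. The median of their log2 ratios was -0.18 (-0.17 for the small subunit and -0.19 for the large), where the median of all genes was -0.01. Past 1.5-fold, 2 members were higher, where 17% of all genes were, and 4 lower, where 17.2% were. The oocytes did not overlap for rla-0 alone, where 3.15% of all genes lay lower in every -3 oocyte. In the other direction there were 0 members, against 2.86% of all genes. Under DESeq2 size factors rla-0 overlapped too. Lowest were rla-0 (-1.04), rps-7 (-0.78), rpl-10 (-0.62), rps-6 (-0.62) and rpl-14 (-0.57). Highest were rpl-25.1 (0.87), rpl-37 (0.66), rpl-12 (0.43), rpl-2 (0.33) and rpl-41.2 (0.32). The ratio of rpl-2 was -0.29 and that of rpl-41.2 -0.08 without -3 replicate 1, and rpl-37 stood at -0.60 without -3 replicates 1 and 3. The median of the members was -0.50 without -3 replicate 1, with 35 members past 1.5-fold (44.9%, against 32.6% of all genes), and -0.04 without -5 replicate 1. Without both -3 oocytes it was -0.48, and rla-0 stood at -0.95, rps-6 at -1.10, rps-7 at -0.80, rpl-10 at -0.53 and rpl-14 at -0.62.

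The 3 comparisons share oocytes, so they are not independent. Seen as levels, 74 members were highest at -1, 4 at -3 and 0 at -5. The lowest level was at -3 for 58, at -5 for 18 and at -1 for 2. How all genes that passed divide in this way was not counted, so these counts have no background beside them. The members also move together across oocytes and are not separate cases. With 1 oocyte left out at a time, 59 to 76 members were higher at -1 than at -5. In the same way 71 to 75 were higher at -1 than at -3, and 5 to 36 at -3 than at -5. In the authors' deposited tables the median log2 fold change of the 78 members was 0.36 for -1 against -5, 0.60 for -1 against -3 and -0.25 for -3 against -5. There rpl-12 stood at -0.24, -0.56 and 0.35 in the authors' deposited tables.

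Ribosomal protein genes that the symbol rule missed mostly behaved like the members. The list chosen for this purpose held rpl-7A, ubl-1, ubq-2 and rack-1, and rpl-36.A was added after its name was seen. The genes ubl-1 and ubq-2 code for ribosomal proteins fused to a ubiquitin-like protein or ubiquitin, and rack-1 for a scaffold protein on the small subunit. Their r with the mean of the members was 0.93 for rack-1, 0.90 for rpl-36.A, 0.88 for ubq-2 and 0.86 for ubl-1. The log2 ratio of -1 over -5 was 0.28 for rack-1, 0.31 for rpl-36.A, 0.14 for ubq-2 and 0.73 for ubl-1.

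The abundant rpl-7A went another way. It stood at 637, 1290, 488 and 610 CPM at -1, 1530, 535, 787 and 674 CPM at -3, and 498, 1021, 1332 and 347 CPM at -5. Replicate 1 of -3 was its highest oocyte, as for rpl-12. Its r with the members was 0.62, and its log2 ratios were -0.02 for -1 over -5 and -0.29 for -1 over -3.

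Among the 5109 other genes of at least 20 CPM, the 5 closest to the members by r over the 12 oocytes were Y37E3.8 (0.97), rack-1, rpl-36.A, ubq-2 and W01D2.1 (0.88). The rule for the set had missed Y37E3.8 because the name table gives it no symbol of the rpl-, rps- or rla- form, and RefSeq's annotation names it rpl-27A. It stood at 204, 306, 103 and 104 CPM at -1, 213, 78.3, 76.98 and 102 CPM at -3, and 155, 124.1, 143 and 62.5 CPM at -5, high and low in the same oocytes as the set. Of the 11 such genes with an r over 0.8, 6 are thus named as cytoplasmic ribosomal proteins or the ribosomal scaffold rack-1. The others, named after their values were seen, were C37A2.7 (0.87), iff-1 (0.86), mrps-33 (0.85), icd-2 (0.81) and eef-1A.1 (0.81). The gene C37A2.7 carries only a sequence name in the sources used here, so the count of 6 does not show whether it is a ribosomal protein gene. Of these, eef-1A.1 is the gene of a translation elongation factor, iff-1 codes for a relative of translation factor eIF5A, and icd-2 for a subunit of the nascent chain complex.

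By the same measure the genes closest to rpl-12, looked up after its pattern was seen, were hyls-1 (0.988), Y94H6A.3 (0.984), the C-type lectin gene clec-87 (0.979), abhd-5.2 (0.973) and R151.2 (0.972). Among the members rpl-41.2 (0.74) and rpl-41.1 (0.59) were closest to it, and the median r of the other members with rpl-12 was 0.22.

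Other lists of the translation machinery had a lower r with the ribosomal protein genes. Translation initiation factors (31 genes with counts that passed) had log2 ratios of -1 over -5 with a median of 0.06, and 1 was higher and 1 lower by over 1.5-fold. The highest were the cap-binding protein gene ife-4 (0.72) and eif-1 (0.53), which codes for a factor of start codon choice, and the lowest eif-2Bdelta (-0.61), for a subunit of a nucleotide exchange factor, and eif-6 (-0.28), for a factor that keeps the subunits apart. For eif-2Bdelta, -5 replicate 2 stood at 144 CPM, against 36.4, 41.7 and 52.4 CPM in the other -5 oocytes. The level of ife-4 was low, from 2.71 to 25.3 CPM in single oocytes. The mean of the list of initiation factors had an r of -0.17 with the mean of the members. Elongation and nascent chain factors (17 genes) had a median of 0.04, from -0.53 for iff-2 and -0.51 for the translocation factor gene eef-2 to 0.25 for erfa-3, a release factor gene, and 0.42 for icd-2, and the r of their mean was 0.55. None of these 17 was past 1.5-fold. Of all genes, 11% were higher and 13.6% lower by as much at -1 than at -5. For iff-2, -5 replicate 4 stood at 58.1 CPM, against 15.6, 8.14 and 23.0 CPM in the other -5 oocytes. Ratios of list genes were not recomputed with oocytes left out.

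Genes of ribosome assembly and RNA polymerase I (39 genes) had a median of -0.002 between -1 and -5 and an r of -0.18. The highest were the box C/D particle genes nol-56 (0.71) and fib-1 (0.58), which act on pre-rRNA, and the lowest sbds-1 (-0.33) and the polymerase subunit gene rpoa-12 (-0.33). Only nol-56 was past 1.5-fold, where 11% of all genes were higher and 13.6% lower by as much. Genes of growth signalling to ribosomes (16 genes) had a median of 0.19 and an r of -0.46. At the top were mml-1 (0.68) and rheb-1 (0.47), which codes for an activator of the TOR kinase. At the bottom were the TOR complex gene mlst-8 (-0.63) and mxl-2 (-0.46). In single oocytes mlst-8 stood at only 0.637 to 8.18 CPM, and mml-1 at 4.16 to 34.2 CPM.

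For -1 against -3 the medians of these lists were 0.10 for initiation factors, with 21 of 31 higher, 0.21 for elongation factors, with 11 of 17 higher, 0.18 for ribosome assembly, with 30 of 39 higher, and 0.15 for growth signalling, with 10 of 16 higher. Of all genes, 51.3% were higher at -1 than at -3. Past 1.5-fold, 6 of the 39 assembly genes were higher and 1 lower, where 16.6% of all genes were higher and 19.9% lower. The median of the members in that comparison was 0.61. The ribosomal proteins of mitochondria (70 genes named mrpl- or mrps-) were a list added after the data were seen. For -1 against -3 their median was -0.13, with 27 of 70 higher at -1. For -1 against -5 it was -0.07, with 26 of 70 higher at -1. The r of their mean with the cytoplasmic set was 0.08, and 1 of the 70, mrps-33, had an r over 0.8.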

How the data were processed

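The authors deposited whole-number counts per gene, with none of the columns normalized, and 3 tables of pairwise DESeq2 comparisons on a log2 scale, of which only the log2 fold changes were used. For each gene the deposited tables further give the authors' mean signal, test score and p-value, none of which was used. Per the labels' protocols, freshly collected oocytes were lysed and frozen, and libraries were made with a SMART-seq 3' DE kit. Per the submitters' processing notes, cutadapt 1.18, FastQC 0.11.5, STAR, featureCounts 1.5.3 and DESeq2 1.32.0 were used, and the file header gives featureCounts 1.6.4 with the WormBase WS271 annotation and no option for strand, multi-mapping or overlapping genes. No build of the genome is given in the sources used here. Coordinates are printed as in the count table. Reads of a gene and of an antisense partner cannot be told apart.

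Symbols came from a name table that matched 44018 of 46903 identifiers, 3' ends and transcripts from the Ensembl 115 annotation (WBcel235), and further names from RefSeq (WBcel235). No row named anything other than a gene. Genes were kept by the default filter of edgeR 4.0.16 (R 4.3.3) and library sizes were scaled by its TMM factors. Levels at a position divide the counts of 4 oocytes, added up, by the sum of their scaled library sizes, and a sum under 3 counts over a position was set to 3. Oocytes were compared on log2(CPM + 1). A member was counted past 1.5-fold by its ratio of levels. Positions were called separate for a gene when all oocytes of one lay above all of the other. The computations were tested on simulated data. The members and lists were chosen with earlier results of these data known, and no list gives independent support. Genes were named by rule: the 10 highest and lowest levels, the 5 highest and lowest ratios of each comparison, those whose oocytes did not overlap, pairs, stalk genes, X-linked genes, the 5 lowest r, the 2 highest and lowest of each list, and the 5 most alike genes. Others are said to have been chosen after seeing the data.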

Additional observations from a re-analysis of the deposited data

Results flagged for a closer look

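In 126 groups of 4 oocytes checked for 1 oocyte far from the other 3, 11 were past the 95% critical value of Dixon's ratio, where chance alone gives about 6.3. The groups are not independent, since they measure the same 12 oocytes on genes that mostly move together. The 11 groups are therefore not 11 separate outliers. Replicate 1 of position -3 was the high oocyte in 7 of the 11. It was so for the small subunit share of the counts, 0.479% against 0.282% to 0.315% in the other -3 oocytes, and for the mean log2 level of the members, 0.51 against -0.65 to -0.46. Single genes with this oocyte high were rpl-19 at 617 CPM (others 140 to 183), rps-12 at 307 CPM (145 to 161), rpl-38 at 186 CPM (49.9 to 64.6), rpl-24.1 at 236 CPM (76.4 to 99.5) and rpl-25.2 at 206 CPM (100.3 to 111). Replicate 4 of position -5 was the low oocyte for rpl-37 at 1.03 CPM (others 2.32 to 2.45), rps-22 at 20.7 CPM (74.1 to 82.2) and rpl-24.1 at 88.1 CPM (198 to 219). Replicate 2 of position -1 was high for rpl-25.1, at 21.5 CPM against 5.38 to 7.08 in the other -1 oocytes.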

How the results depend on the processing

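Of 746 recomputed values for 61 results, 300 of summary results and 400 of single members moved by less than the spread between oocytes or, for counts, stayed within 1.5 times. For ratios this spread was 0.59 on the log2 scale, the SD of the members' mean level within positions. It exceeds the medians of 0.45 for -1 against -5 and -0.18 for -3 against -5. A single member's ratio under 1.5-fold could also change sign and still be included, as rpl-12 did. The 300 and 400 therefore show little about stability. The alternatives for ratios of single members, for the counts past 1.5-fold, for the share at -3 without those that stood apart and for the r with the other members were chosen after seeing the data. Total counts without a factor moved the median of all genes to 0.21 for -1 against -3 and to -0.13 for -3 against -5. The members' median relative to that of all genes was 0.46, 0.60 and -0.17 in the 3 comparisons (-1 against -5, -1 against -3, -3 against -5). A new scaling adds the same amount to the log2 ratio of every gene, so these 3 values could not change and show no stability. With total counts, and likewise with totals that leave out the ribosomal protein counts, 28 members in place of 17 were past 1.5-fold for -1 against -5 and 12 in place of 6 for -3 against -5, and 9 in place of 3 did not overlap for -1 against -3. With the mean of log2(CPM + 1) over oocytes, 4 members were past 1.5-fold for -1 against -5, and 11 in place of 20 were higher for -3 against -5. With DESeq2 size factors, 0 in place of 1 did not overlap for -3 against -5. The shares of all genes were not counted under these scalings or under the mean over oocytes. These counts of members therefore have no background beside them and are not read as a result about the members. Without -3 replicates 1 and 3, which stood apart, 39 of 78 members did not overlap for -1 against -3, against 17.3% of all genes. For -3 against -5, 6 were higher (7.69%, against 47.4% of all genes) and 3 did not overlap (3.85%, against 16.9%). In that comparison 27 were past 1.5-fold (34.6%, against 31.7%) and the ratio of rpl-37 turned to -0.60. Without rpl-12 the members' share was 1.401%, 0.807% and 0.992% at -1, -3 and -5, and that of the large subunit 0.789%, 0.459% and 0.563%. Beyond what leaving out genes or oocytes does by construction, the cause was not tested. Leaving out 1 oocyte at a time, the medians ranged from 0.148 to 0.688 for -1 against -5, from 0.409 to 0.934 for -1 against -3 and from -0.505 to -0.036 for -3 against -5. In the same order of comparisons, members past 1.5-fold ranged from 1 to 52, 21 to 69 and 4 to 35, members that did not overlap from 1 to 2, 3 to 30 and 1 to 7, and members higher in the first position from 59 to 76, 71 to 75 and 5 to 36. Of all genes, at most 29.0%, 42.6% and 39.9% were past 1.5-fold, and 7.57% to 10.2%, 8.51% to 13.8% and 7.67% to 11.9% did not overlap. No paired analysis was possible because no result comes from a test between positions and no label ties an oocyte to an animal. With 4 oocytes a position, of unknown animals, spread between animals and between cells cannot be told apart.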
